A study of Mus musculus with 6 samples.

Results

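The genes described here encode the Slit ligands, the Robo receptors and the Slit-Robo GTPase-activating proteins (srGAPs), namely SLIT1, SLIT2, SLIT3, ROBO1, ROBO2, SRGAP1, SRGAP2 and SRGAP3. They were found by their symbols, which the deposited tables write in capitals, and make up 8 of the 23282 gene rows of each table. The cells of both groups were Ink4a/Arf-/- mouse astrocytes, a brain-derived line without a tumor suppressor locus. They had been transfected with pcDNA3.1-puro alone (the control, 3 libraries) or with pcDNA3.1-JAG1-puro (called JAG1-overexpressing, 3 libraries). JAG1 is a membrane ligand of NOTCH receptors, and the comparison asks which genes change when it is overexpressed. The labels call the control genotype WT, which was read as without the JAG1 vector, and they do not state whether the replicates were separate transfections, so that p-values measure a spread between libraries that may be technical. The QuantSeq libraries read the 3' end of polyadenylated transcripts. Reads on genes came to 20489062, 18889751 and 18952552 in the control libraries and to 20071276, 14341634 and 16442278 in the JAG1-overexpressing libraries.

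Slits are large secreted proteins that bind the extracellular part of Robo receptors, and heparan sulfate on the cell surface strengthens this binding. Robo receptors have no enzyme activity of their own, and their intracellular tail recruits srGAPs and other adaptors that switch off or redirect small GTPases and thereby the actin cytoskeleton. The system is best known for repelling axons from the midline of the nervous system, and in the adult brain astrocytes along the route of migrating neuroblasts carry Robo receptors.

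Jag1, on chromosome 2, had 182, 201 and 214 reads in the control libraries and 304, 197 and 227 in the JAG1-overexpressing libraries. In CPM (counts scaled to 1000000 per library and normalized by edgeR's TMM method), the JAG1-overexpressing libraries all lay above the controls, with a log2 fold change of 0.46 ± 0.11 (standard error) and, by edgeR's quasi-likelihood test, an adjusted p of 0.00446. A transcript from pcDNA3.1 can end in the polyadenylation signal of the vector, so reads on the end of the mouse gene may not be a full measure of the transfected JAG1. The species and 3' end of the insert are not given in the sources used here. The size of the overexpression is therefore not known from these libraries.

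Of the Slit, Robo and srGAP genes, Slit2 and Srgap3 rose and Robo2 and Srgap2 fell in JAG1-overexpressing astrocytes. Slit2, the only ligand with more than 4 reads in any library, rose 3.29-fold. Robo2, the only receptor of the list with more than 1 read in any library, went from 105 reads over the 3 control libraries to 1 read over the 3 JAG1-overexpressing libraries. In RNA from a whole culture, fewer cells with a transcript and less of it per cell cannot be told apart. Slit1, Slit3, Robo1 and Srgap1 had too few reads to be tested. A change was called at an adjusted p under 0.05 by edgeR's quasi-likelihood test over all 11712 genes that passed a filter on low counts (filterByExpr, minimum count 10), and 4 of the 8 genes passed that filter. All 4 were called, 2 higher and 2 lower, where 55.1% of all tested genes were called, made up of 27.4% called higher and 27.7% called lower. Of the 4, 3 changed at least 2-fold, beside 13.9% of all tested genes called with that fold, and in all 4 the CPM values of the groups did not overlap, beside 62.0% of all tested genes. Robo2 passed the filter through its control libraries alone, so its place in these counts was in part set by the filter.

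**Figure D1:**
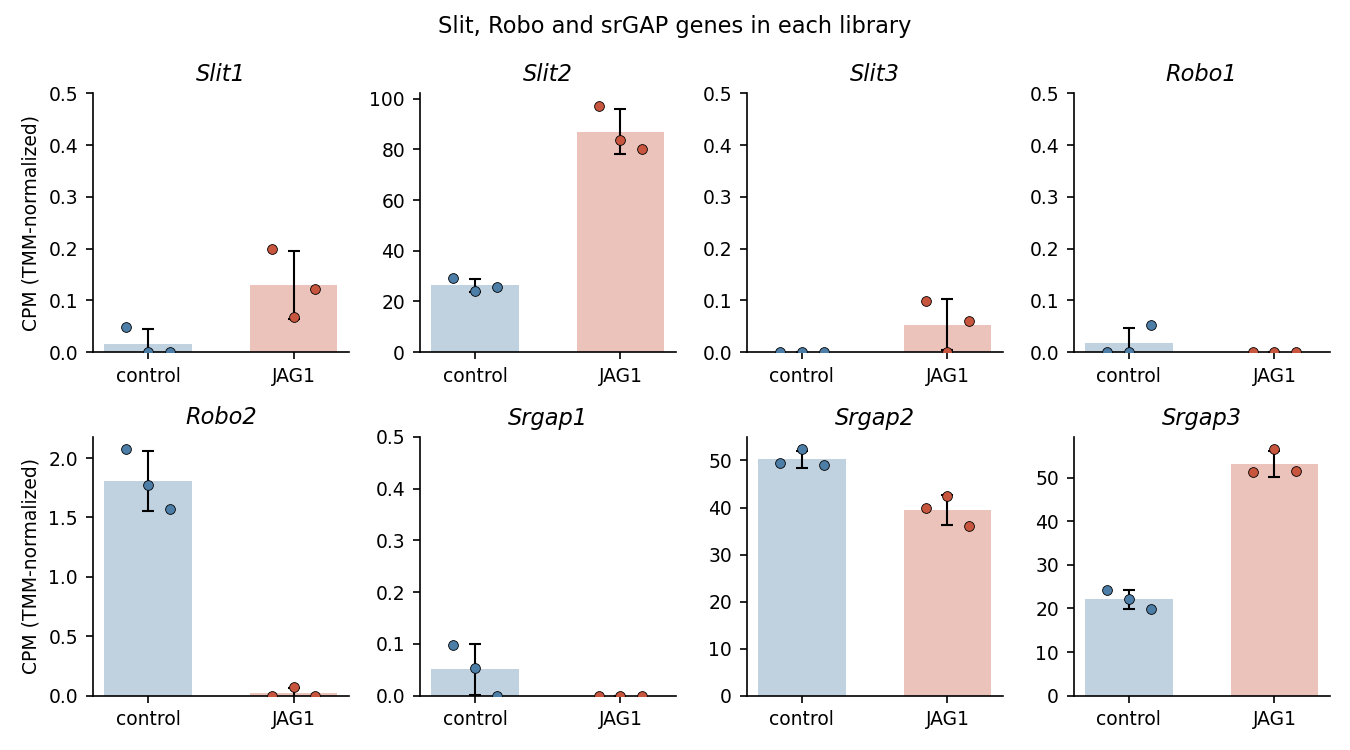
CPM (TMM-normalized, vertical axes of different scale) of the 8 Slit, Robo and srGAP genes in the control and JAG1-overexpressing (JAG1) libraries; points are libraries, bars the mean and error bars the SD over 3 libraries. The groups are apart for Slit2, Robo2, Srgap2 and Srgap3, and Slit1, Slit3, Robo1 and Srgap1 lie below 0.2 CPM throughout.

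The ligands were represented by Slit2 (chr5:47981291-48307735, GRCm38), which encodes a chemorepellent that also steers endothelial and glioma cells. The control libraries had 594, 453 and 492 Slit2 reads and the JAG1-overexpressing libraries had 1950, 1215 and 1320. In CPM the controls held 29.3, 24.3 and 25.7, with a mean of 26.4 ± 2.58 (SD, n = 3), while the JAG1-overexpressing libraries reached 97.1, 83.6 and 80.1, with a mean of 87.0 ± 8.99 (SD, n = 3). Every JAG1-overexpressing library thus lay far above every control library. The log2 fold change was 1.72 ± 0.09 (standard error) at an adjusted p of 5.36e-08 (edgeR).

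Slit1 (chr19:41597824-41747275) and Slit3 (chr11:35121456-35708507), which encode the paralogous ligands, were near the limit of detection. Slit1 had 1, 0 and 0 reads in control and 4, 1 and 2 in JAG1-overexpressing libraries. Slit3 had 0 reads in every control library and 2, 0 and 1 in the JAG1-overexpressing libraries. A count of 3, below which a gene was not told from 0, equals 0.148 to 0.206 CPM depending on the library, and this limit covers counting error only. No direction was drawn for these genes. Slit2 held 99.7% to 100% of the Slit reads in each of the 6 libraries.

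Robo2 (chr16:73891976-75447443) encodes a receptor that binds Slits through its immunoglobulin domains. It had 42, 33 and 30 reads in the control libraries and 0, 1 and 0 in the JAG1-overexpressing libraries. The control CPM values were 2.07, 1.77 and 1.57, with a mean of 1.80 ± 0.254 (SD, n = 3), against 0, 0.0688 and 0 in the JAG1-overexpressing libraries. The receptor was thus a low but measurable transcript in control and at or below the limit of detection in every JAG1-overexpressing library. Over the groups, the ratio of depth-scaled reads was 92.4-fold lower in JAG1-overexpressing astrocytes, with a 95% exact interval of 16.2 to 3685 that covers counting error only. The adjusted p was 8.29e-06 (edgeR's quasi-likelihood test), and the fitted log2 fold change of -6.10 (standard error 0.62) depends on how a count of 0 is treated.

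Robo1 (chr16:72027518-73047491), on the same chromosome as Robo2, encodes the receptor most often studied with Slit2. It had 0, 0 and 1 reads in control and 0 in every JAG1-overexpressing library. The other receptor genes of the family, given for completeness, were also low. Robo3, a divergent receptor of commissural neurons, had 9, 2 and 6 reads in control and 0, 1 and 3 in JAG1-overexpressing libraries, and Robo4, the receptor of endothelial cells, had 0 in all 6. Together the Robo genes had 51, 35 and 37 reads in control and 0, 2 and 3 in JAG1-overexpressing libraries.

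Among the srGAPs, Srgap3 (chr6:112717971-112947505), also known as WRP, encodes a GTPase-activating protein for Rac that binds WAVE. It had 491, 412 and 382 reads in control and 1027, 821 and 848 in JAG1-overexpressing libraries. These are 24.2, 22.1 and 20.0 CPM, with a mean of 22.1 ± 2.13 (SD, n = 3), against 51.2, 56.5 and 51.5 CPM, with a mean of 53.0 ± 2.97 (SD, n = 3). The groups were far apart, with a log2 fold change of 1.26 ± 0.09 (standard error) at an adjusted p of 3.30e-07 (edgeR), a rise of 2.40-fold.

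Srgap2 (chr1:131285251-131527531), whose product bends membranes into protrusions through its F-BAR domain, went the other way by a smaller step. It had 1001, 976 and 937 reads in control and 799, 616 and 595 in JAG1-overexpressing libraries. In CPM the values were 49.4, 52.4 and 49.0 in control, with a mean of 50.3 ± 1.84 (SD, n = 3), and 39.8, 42.4 and 36.1 in JAG1-overexpressing libraries, with a mean of 39.4 ± 3.14 (SD, n = 3). Each JAG1-overexpressing library lay below each control library, with a log2 fold change of -0.35 ± 0.07 (standard error) at an adjusted p of 0.00207 (edgeR). Srgap1 (chr10:121780991-122047911), which encodes the srGAP first tied to Cdc42, had 2, 1 and 0 reads in control and 0 in every JAG1-overexpressing library.

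Since a 3' library yields about a read per transcript end, the reads of the srGAP genes were also set side by side within each library. Srgap3 took 32.9%, 29.7% and 29.0% of the srGAP reads in control and 56.2%, 57.1% and 58.8% in JAG1-overexpressing libraries. The leading srGAP transcript was therefore Srgap2 in every control library and Srgap3 in every JAG1-overexpressing library. The mean share moved from 30.5% ± 2.08 to 57.4% ± 1.28 (SD, n = 3 each), a difference of 26.9 percentage points, with a two-sided exact permutation p of 0.1, the smallest that 3 libraries against 3 allow. Since Srgap3 was higher and Srgap2 lower without overlap, the shares had to separate. This p therefore adds no evidence to the changes of the single genes. The srGAP reads together came to 73.7, 74.5 and 69.0 CPM in control and 91.0, 98.8 and 87.6 CPM in JAG1-overexpressing libraries.

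**Figure D2:**
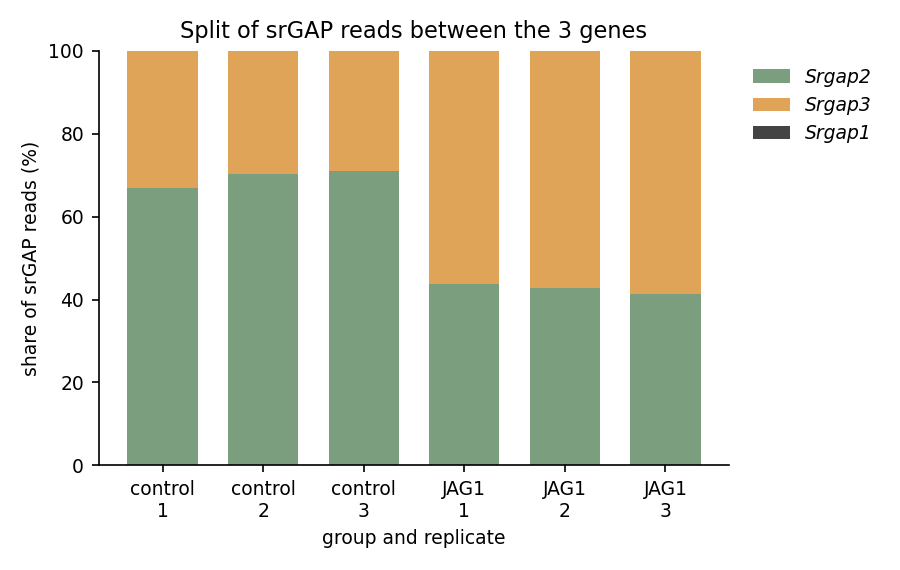
Share of the srGAP reads (%, stacked to 100) that Srgap2, Srgap3 and Srgap1 took in each of the 3 control and 3 JAG1-overexpressing (JAG1) libraries. Srgap3 takes about 30% in control and about 57% in JAG1-overexpressing libraries, and Srgap1 is too small to see.

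Ordered by level in control, Srgap2 at 50.3 CPM stood first, followed by Slit2 at 26.4 and Srgap3 at 22.1, whose means differed by less than the sum of their SDs, and then Robo2 at 1.80. In JAG1-overexpressing astrocytes Slit2 at 87.0 CPM led Srgap3 at 53.0 and Srgap2 at 39.4, and the library values of these genes did not overlap. Among the fitted changes of all genes, whose median log2 fold change was 0.0039, Srgap2 stood at place 2459 of the 3247 that fell, Slit2 at place 311 and Srgap3 at place 462 of the 3211 that rose. No place is given for Robo2, whose fitted change ran from -8.10 to -4.55 over the alternatives.

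**Figure D3:**
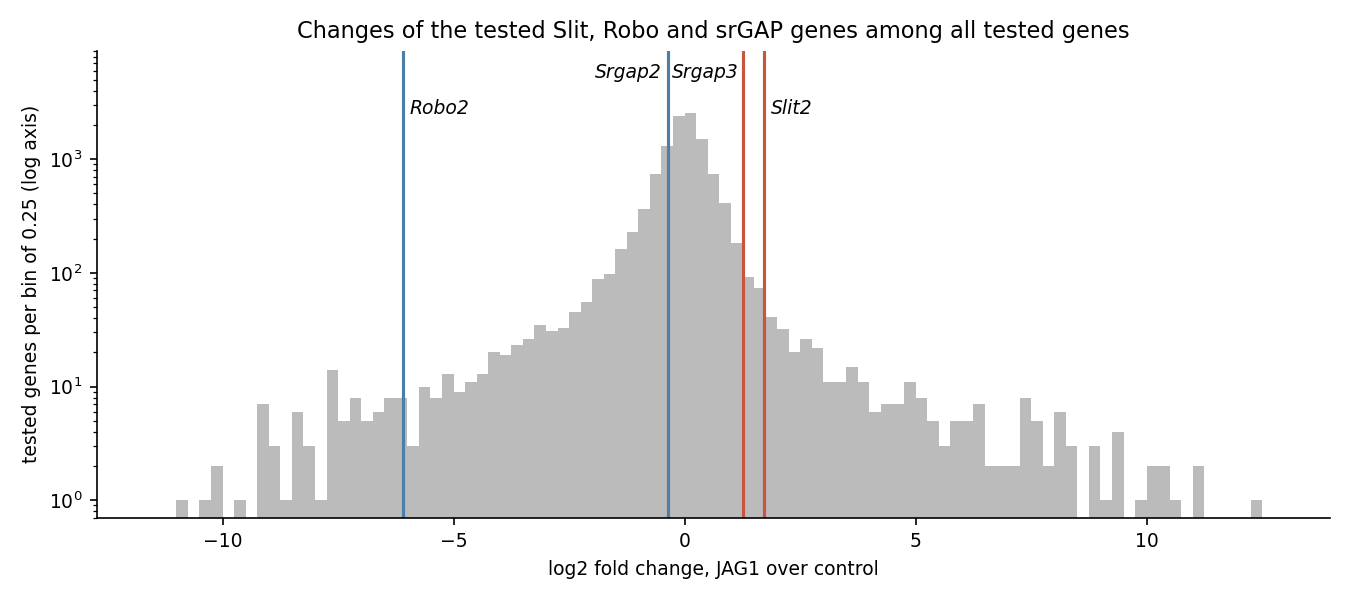
Log2 fold changes (JAG1-overexpressing over control) of all 11712 tested genes as a histogram, with the number of genes per bin on a log axis; vertical lines mark the tested genes of the list, red where they rose and blue where they fell. Slit2 and Srgap3 lie on the right flank at 1.72 and 1.26, Srgap2 inside the central peak at -0.35 and Robo2 in the left tail at -6.10.

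The promoters of the genes that changed at least 2-fold are shown with the motifs of factors tied to JAG1: RBPJ, the DNA-binding partner of cleaved NOTCH, and SMAD3 and TWIST1, with which the study from which these libraries come is concerned. Each run covers 300 bases around the RefSeq transcription start, mostly upstream of it, and this start lies inside the gene interval given above in each of these genes. The run reads 5' to 3' on the strand of the gene in GRCm38.p6, and carries in capitals the letters TGGGAA or TTCCCA (the core of an RBPJ site on either strand) or CAGAC or GTCTG (a SMAD site on either strand). For Robo2, the most upstream of 3 annotated starts is given.
Slit2 (chr5:47982905-47983204, plus strand): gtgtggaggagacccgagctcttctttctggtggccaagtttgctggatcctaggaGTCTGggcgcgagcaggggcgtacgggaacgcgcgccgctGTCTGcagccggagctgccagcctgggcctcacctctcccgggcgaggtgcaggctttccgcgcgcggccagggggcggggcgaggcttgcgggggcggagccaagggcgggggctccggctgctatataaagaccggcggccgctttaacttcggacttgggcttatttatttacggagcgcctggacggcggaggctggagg
Robo2 (chr16:75447244-75447543, minus strand): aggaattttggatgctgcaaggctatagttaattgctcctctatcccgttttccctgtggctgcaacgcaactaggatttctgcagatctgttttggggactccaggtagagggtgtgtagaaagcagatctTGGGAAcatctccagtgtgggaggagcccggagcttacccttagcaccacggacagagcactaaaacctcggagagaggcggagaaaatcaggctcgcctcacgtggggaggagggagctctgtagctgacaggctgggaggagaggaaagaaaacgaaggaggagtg
Srgap3 (chr6:112947217-112947516, minus strand): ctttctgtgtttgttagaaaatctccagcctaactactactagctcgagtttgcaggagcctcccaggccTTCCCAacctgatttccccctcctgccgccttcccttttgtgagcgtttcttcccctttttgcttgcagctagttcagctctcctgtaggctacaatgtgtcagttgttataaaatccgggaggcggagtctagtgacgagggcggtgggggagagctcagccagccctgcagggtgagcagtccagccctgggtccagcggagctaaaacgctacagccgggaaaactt
The Slit2 promoter held 2 SMAD motifs and no RBPJ motif, and the Robo2 and Srgap3 promoters shown held 1 RBPJ motif and no SMAD motif each, with no overlap between motifs. A promoter was found for 7 of the 8 genes, that of Slit1 being the exception. Slit3, Robo1 and another Robo2 start held 1 SMAD motif each, Srgap1, Srgap2 and the third Robo2 start held neither, and none of these promoters held the letters CATCTG or CAGATG of a Twist-type E-box. Of 32851 mouse promoters of the same length, 25.6% held an RBPJ motif, 49.6% a SMAD motif and 17.2% the E-box, so these motifs are common, and a match here describes letters and not a bound site. The promoters of Slit2, Robo2 and Srgap3 had a GC content of 68.0%, 53.3% and 54.7%, beside a median of 52.7% over all promoters.

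Slit2 and Slit3 also host a microRNA, which is shown because its seed links the ligand genes to the receptors in sequence. The mature miR-218-5p lies on the same strand in an intron of Slit2 (chr5:48223966-48223986) and again in an intron of Slit3 (chr11:35616840-35616860), and its seed (bases 2 to 8) is in capitals.
mmu-miR-218-5p: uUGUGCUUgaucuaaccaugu
The letters AAGCACA, which pair with this seed, occurred 2 times in the longest annotated 3' UTR of Robo2 and of Slit2, 1 time in that of Robo1, Srgap2 and Srgap3, and not in that of Slit1, Slit3 or Srgap1. Of 21669 genes, 13.3% held such a match, over UTRs with a median of 911 bases. The UTRs of Slit2, Robo1, Robo2, Srgap2 and Srgap3 ran to 3495, 1736, 3990, 4109 and 4820 bases. Those of Slit1, Slit3 and Srgap1, without a match, ran to 1215, 368 and 4410 bases. A longer UTR is more likely to hold a match by length alone, though that of Srgap1 held none. Small RNAs were not measured in these libraries, so the level of miR-218 is not known. Of the tested genes with a match, Slit2 and Srgap3 rose and Robo2 and Srgap2 fell. Any part of miR-218 in these changes was not tested.

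To see whether whole regions moved, each gene was set beside its chromosome and the 5 tested genes on either side of it. The tested genes of chromosomes 5, 16, 1 and 6, which carry Slit2, Robo2, Srgap2 and Srgap3, had median log2 fold changes of 0.019, -0.00094, -0.0096 and 0.023. Chromosome 19, which carries the nearly undetected Slit1, had a median of 0.61. The neighbors are given beside the 27.4% of all tested genes called higher and the 27.7% called lower. Around Slit2, 4 of 10 neighbors were higher and 2 lower, and the median of the 10 log2 fold changes was 0.13, among them Ppargc1a at 4.83 and Adgra3 at -3.24. Around Robo2, 5 of 10 were higher and 0 lower, with a median of 0.24. These neighbors are distant, their lowest coordinates lying 1.86 to 9.11 Mb from that of Robo2, beside 0.0307 to 0.625 Mb for those of Srgap2. Around Srgap2, 3 were higher and 1 lower with a median of 0.15, and around Srgap3, 6 were higher and 1 lower with a median of 0.22, the largest of them being Lmcd1 at 1.02, below the 1.26 of Srgap3 itself. Measured against the median of its own chromosome, Slit2 changed by 1.70, Robo2 by -6.10, Srgap2 by -0.34 and Srgap3 by 1.24 on the log2 scale.

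**Figure D4:**
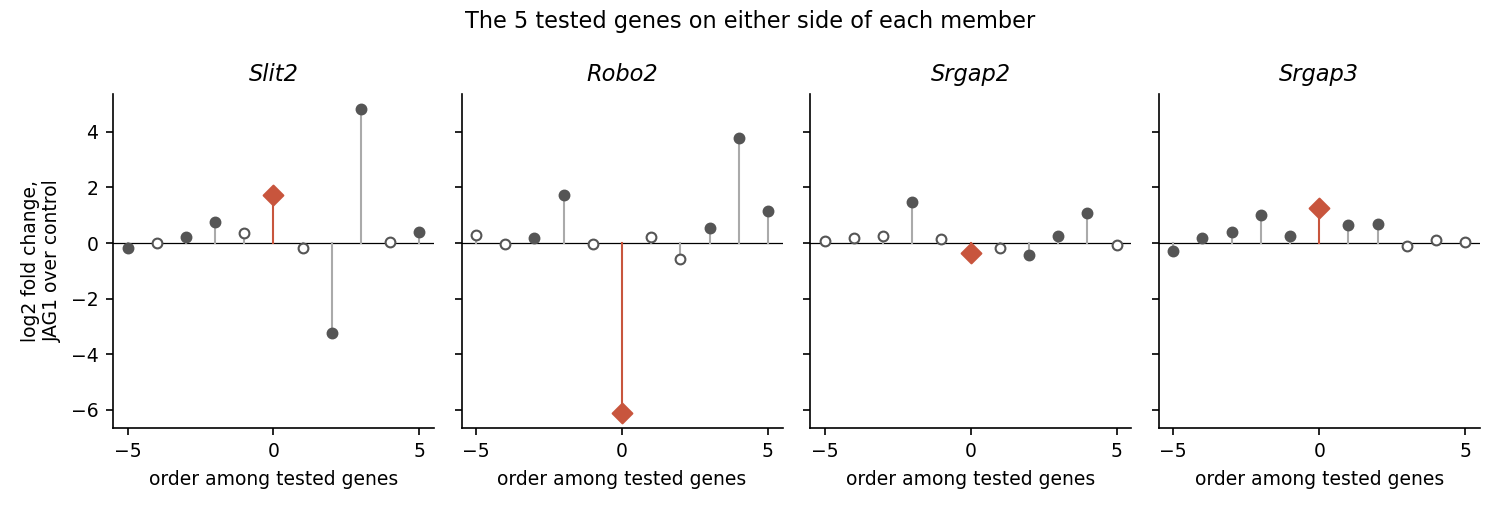
Log2 fold change (JAG1-overexpressing over control) of Slit2, Robo2, Srgap2 and Srgap3 (red diamonds) and of the 5 tested genes on either side (circles, filled where called at an adjusted p under 0.05), ordered by position along the chromosome. Robo2 is the only point far below 0 in its window, and the neighbors of Srgap3 on the left and right lie mostly above 0.

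The wider Slit-Robo pathway was followed through 53 further genes in 4 groups, of which 44 were tested. Of these, 14 were higher, 13 were lower and 17 were not called, with a median log2 fold change of 0.033, beside 55.1% called and a median of 0.0039 over all tested genes. At least a 2-fold change was called for 11 of the 44, beside 13.9% of all tested genes; 2 of the 11, Sdc2 and Ext1, lie on a chromosome whose median fell, as given with each. The pathway as a list thus had no common direction, and single partners stood out.

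The surface partners, which present Slits or bind Robos, were 16 genes, with 9 tested, 3 higher, 3 lower and 3 not called. Sdc3, a transmembrane heparan sulfate proteoglycan of neural cells, had 163, 150 and 168 reads in control and 908, 703 and 647 in JAG1-overexpressing libraries. Its log2 fold change was 2.42 (standard error 0.10). Gpc1, the glypican known to bind Slit2, moved the opposite way from 398 ± 18.7 CPM (SD, n = 3) to 142 ± 2.81 CPM, a log2 fold change of -1.49 (standard error 0.05). Sdc2 fell by 1.27 and Sdc1 fell by 0.57 on the log2 scale. Sdc2 lies on chromosome 15, where 346 of 459 tested genes were lower and the median log2 fold change was -0.53; relative to that median it changed by -0.74. Sdc4, a further syndecan, gave -0.02 against all genes and was not called (edgeR's adjusted p 0.86). Of these heparan sulfate core proteins, 1 rose, 3 fell and 1 was not called, beside 27.4% of all tested genes called higher and 27.7% called lower. They are only part of the surface partners and were not tested as a group. Flrt3, a leucine-rich transmembrane partner of Robo1, went from 4, 3 and 6 reads to 40, 29 and 48, a log2 fold change of 3.32 (standard error 0.37). Dag1, the dystroglycan that binds the C-terminal part of Slits, rose by 0.52 on the log2 scale. Flrt2 at -0.18 and the cadherin Cdh2 at 0.03 were not called, and Robo3, Robo4, Flrt1, Dcc, Cxcr4, Nell2 and Ndnf had too few reads to be tested.

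Of 12 genes of receptor processing, trafficking and heparan sulfate synthesis, 11 were tested, 3 higher, 3 lower and 5 not called. The largest fall was that of Hs6st1, which adds 6-O sulfate to heparan sulfate, with 1467, 1252 and 1360 reads in control and 389, 267 and 330 in JAG1-overexpressing libraries, and no overlap. Its log2 fold change was -1.87 ± 0.07 (standard error) at an adjusted p of 3.24e-09 (edgeR). Ext1, a polymerase of the heparan sulfate chain, fell by 1.03 on the log2 scale, or changed by -0.49 relative to the median of chromosome 15, on which it also lies. Its partner Ext2 at 0.03 and the 2-O sulfotransferase gene Hs2st1 at 0.04 were not called. Adam10, a sheddase that cleaves Robo receptors, rose by 0.35 and Usp33, a deubiquitinase that binds Robo1, rose by 0.39. Ndfip2, an adaptor of Nedd4-type ubiquitin ligases, rose by 0.70, but its control libraries ran from 1088 to 2561 reads and the call was lost in 4 of 14 alternative fits, with an adjusted p of up to 0.113 over these fits (edgeR, DESeq2 and limma).

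Of 17 actin regulators and adaptors, 16 were tested, 5 higher, 5 lower and 6 not called. The largest rises were those of Pfn2, a profilin that feeds actin monomers to growing filaments, at 1.46, Vasp, an Ena/VASP protein, at 0.63 and Wasl, which activates branching of actin through Arp2/3, at 0.40 on the log2 scale. Enah and Evl, the Ena/VASP paralogs of Vasp, fell, with log2 fold changes of -1.09 and -0.53, so that only Vasp rose among these paralogs. Nck2, an adaptor that docks on Robo tails, fell by 1.28 and Clasp1, which binds microtubule plus ends, fell by 1.21. Pfn1, the major profilin gene, was not called, with 1005 to 2724 reads among the control libraries. Among the calls, that of Clasp2 (log2 fold change 0.20) was lost in 10 of 14 alternative fits, that of Nck1 (-0.28) without JAG1 replicate 1 and that of Wasl without control replicate 2, at an adjusted p of up to 0.148, 0.061 and 0.053 (edgeR, DESeq2 and limma).

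All 8 genes of the group of small GTPases and their regulators were tested, 3 higher, 2 lower and 3 not called. Rac1 and Cdc42, the GTPases on which srGAPs act, rose by 0.31 and 0.24 on the log2 scale, or 1.24-fold and 1.18-fold, and Rhoa at 0.07 was not called. Sos2, of a family of exchange factors that Robo recruits to activate Rac, rose by 0.61. Arhgap4, the closest relative of the srGAP genes, had 45, 48 and 36 reads in control and 17, 12 and 3 in JAG1-overexpressing libraries, a log2 fold change of -1.82 (standard error 0.38). Myo9b, a myosin with a RhoA-directed GTPase-activating domain, fell by 0.38.

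**Figure D5:**
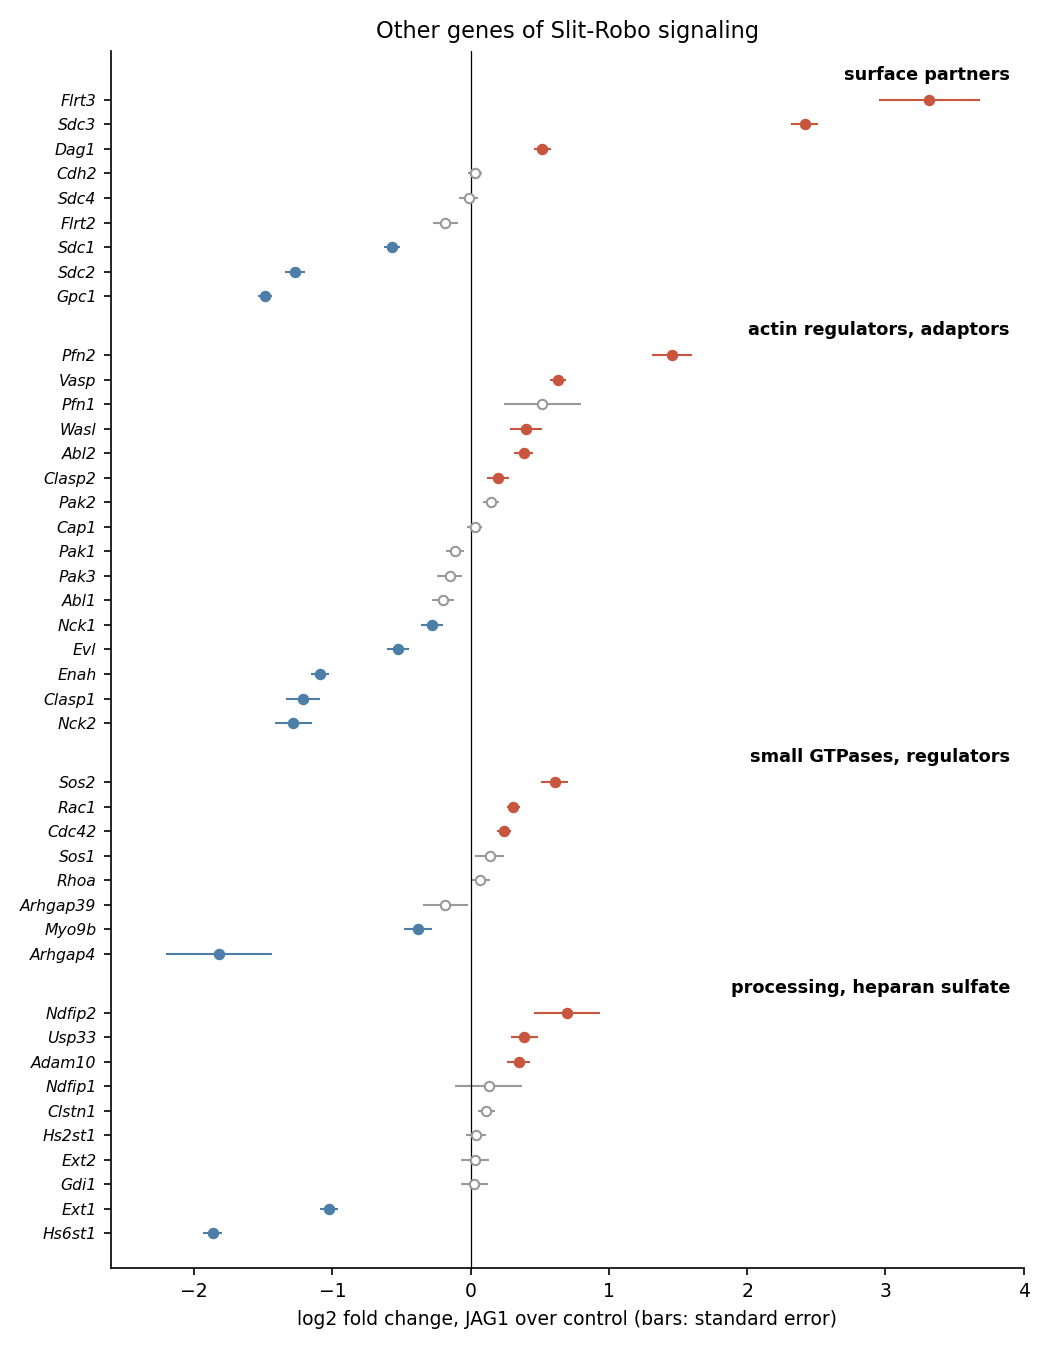
Log2 fold change (JAG1-overexpressing over control, bars are the standard error) of 43 of the 44 tested genes of the wider Slit-Robo pathway in 4 groups; filled points were called at an adjusted p under 0.05 (red higher, blue lower) and open points were not. Flrt3 and Sdc3 lie farthest to the right, Hs6st1 and Arhgap4 farthest to the left, and each group has points on both sides of 0.

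The guidance families most like this one were read beside it, and beside the 27.4% of all tested genes that were called higher and the 27.7% called lower. Of 13 netrin and netrin receptor genes, 4 were tested, 1 higher and 3 lower, and the median of the log2 fold changes was -1.81, the largest fall being that of the receptor gene Unc5c, from 908, 818 and 898 reads to 3, 4 and 0, and the only rise that of Unc5b at 0.31. Of 14 genes of class 3 semaphorins and their receptors, 11 were tested, 2 higher and 8 lower, with a median of -0.61, the largest rise being that of Sema3e, from 1, 0 and 3 reads to 1600, 1145 and 1339, and the largest fall that of Sema3b at -4.74. Each of these families thus held a ligand or receptor gene that was near 0 in 1 of the groups, and no difference between the families was tested.

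The labelled cell type was checked by its markers. They did not show mature astrocytes, with Sox9 and Gja1 present but Gfap and Aqp4 without reads. The name astrocytes follows the label. Of 10 astrocyte markers, Gfap and Aqp4, which define mature astrocytes, had 0 reads in every library, and Slc1a3 and Slc1a2 had at most 2. The 6 tested markers all fell, where 27.7% of all tested genes were called lower, though the call of S100b was lost in 3 of 14 alternative fits. The summed CPM of the list went from 337, 358 and 398 in control to 134, 123 and 137 in JAG1-overexpressing libraries. By group mean Sox9 was the most abundant in control, at 181 CPM against 18.0 in JAG1-overexpressing astrocytes, and Gja1 in JAG1-overexpressing astrocytes, at 96.6 CPM against 151 in control. The fibroblast and mural list of 6 genes fell in all 4 tested, beside the same 27.7%, and summed to 633, 633 and 625 CPM against 235, 243 and 211, with Lum and Rgs5 at 0. Its most abundant gene was Acta2 in control, at a mean of 310 CPM against 39.4, and Col1a1 in JAG1-overexpressing astrocytes, at 164 CPM against 236 in control. Of 7 neuronal markers, Snap25 and Syt1 were at 0, Map2 was higher and Tubb3 lower, and the list summed to 96.8, 106 and 107 CPM against 59.5, 58.5 and 61.5. Tubb3 led it in control and Map2 in JAG1-overexpressing astrocytes. Of 8 oligodendrocyte lineage markers, Mog, Mag, Sox10 and Cspg4 were at 0, none of the 2 tested was called, and the list, led by Pdgfra, stayed between 3.45 and 4.80 CPM. The 6 microglial markers, led by Tmem119 in control and by Cx3cr1 in JAG1-overexpressing astrocytes, summed to 3.26, 3.97 and 3.19 CPM in control and to 1.64, 2.20 and 1.82 in JAG1-overexpressing libraries, with 1 tested gene higher and 1 lower. The higher call, that of Cx3cr1, was lost in 9 of 14 alternative fits. The 5 endothelial markers, led by Pecam1 and with Tek at 0, summed to at most 0.322 CPM, with none tested. The summed levels of the astrocyte, fibroblast and mural, neuronal and microglial lists, which were lower in every JAG1-overexpressing library than in any control library, moved with the changes of Slit2, Robo2, Srgap2 and Srgap3, and their part in these changes was not tested.

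By the shape of its profile over the 6 libraries (Euclidean distance of centred log2 CPM with a prior count of 2), the tested genes most like Robo2 were Cd248 at a distance of 0.365, Slc13a3 at 0.367 and Xpnpep2 at 0.411. Cd248, which encodes endosialin, a surface protein of mesenchymal and perivascular cells, had 833, 701 and 797 reads in control and 50, 54 and 33 in JAG1-overexpressing libraries. Slc13a3 had 75, 56 and 58 against 1, 2 and 1, and Xpnpep2 had 56, 51 and 46 against 2, 2 and 1. The likeness was the ground on which they were picked.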

How the data were processed

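QuantSeq 3' mRNA libraries, 3 of control and 3 of JAG1-overexpressing astrocytes, were analysed. The authors deposited, per library, raw read counts on 23282 gene symbols and the log2 of a read count normalized by a method not given in the sources used here; the counts were the main input and the log2 values an alternative. The submitters' processing notes name Bowtie2, bedtools, edgeR, GRCm38 and mm10, with no roles or versions. Whether reads were counted by strand is not given in the sources used here; no other annotated gene overlapped the last 1000 bases of any of the 8 genes' transcripts. Symbols were matched to RefSeq GRCm38.p6: 22059 by symbol, 1090 by synonym, 133 not at all. All 130 genes of the lists have a row of their own.

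Counts were filtered (filterByExpr, minimum count 10), normalized (TMM) and compared with the quasi-likelihood test of edgeR 4.0.16 in R 4.3.3, with Benjamini-Hochberg adjustment over 11712 genes and a threshold of 0.05. Standard errors were derived from the F statistic. The test was also run on simulated counts in which 200 of 11712 genes were changed. It recovered 96% of them, and 5.88% of its calls were false. The simulation gave all genes the same spread between replicates and changed far fewer genes than were called here. It therefore does not show the error rate in these data. Shares within a family were compared by exact permutation (scipy 1.17.1). Replicate libraries correlated at 0.989 to 0.994 across genes, library pairs between groups at 0.911 to 0.920, and no library was a copy of another. The row with the most reads, ribosomal RN45S, took 4.38% to 5.16% of a library. The labels give no batch.

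The alternatives were DESeq2 1.42.0, limma-voom and the authors' log2 values (limma 3.58.1), library size or upper quartiles in place of TMM, all genes or those with a mean of 10 counts in place of the filter, the replicate number as a block, each library left out in turn, fold limits of 1.5 and 2, and changes relative to the chromosome median (for the pathway genes chosen after seeing the data). Promoters and microRNAs came from RefSeq tables and 3' UTRs from GENCODE M21. Named were Jag1, all 8 genes, Robo3 and Robo4, the surface partners, the up to 3 called genes with the largest rise and fall of each other pathway group, the extremes of the comparison families, the most abundant and undetected markers, and the 3 genes nearest to Robo2. Pfn1, Evl, Rhoa, Ext2, Hs2st1, Sox9, S100b, Acta2, Map2, Cx3cr1 and the neighbors given by name were picked with their values in view. A gene of the pathway list enters its counts and is not reported here. The genes and lists were chosen with earlier results of these data known.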

Additional observations from a re-analysis of the deposited data

How the results depend on the processing

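Slit2, Robo2, Srgap2 and Srgap3 kept their direction and their call under every alternative normalization, filter, test and left-out library. A fold limit moved the counts by construction: at 1.5-fold and at 2-fold, 1 of these genes was called lower in place of 2, since Srgap2 changed by less, and at 2-fold 639 genes were higher and 994 lower over the whole table. Over the other normalizations, filters and tests the log2 fold change ranged from 1.69 to 1.73 for Slit2, from -6.41 to -4.55 for Robo2, from -0.38 to -0.34 for Srgap2 and from 1.24 to 1.28 for Srgap3, and with each library left out from 1.63 to 1.80, from -8.10 to -5.53, from -0.40 to -0.29 and from 1.19 to 1.33. The value of -8.10 came without JAG1 replicate 2, which holds the only Robo2 read of its group, and that of -4.55 from the authors' log2 values. Adjusted p reached at most 2.45e-06 for Slit2, 0.000146 for Robo2, 0.0144 for Srgap2 and 9.90e-06 for Srgap3 under these alternatives. The Srgap3 share differed by 26.1 to 28.1 percentage points with a library left out. Genes called over the whole table ran from 2724 to 3388 higher and from 2792 to 3498 lower, and pathway genes from 11 to 16 and from 11 to 14. Of the 27 pathway genes called, 22 kept the call in all 14 alternative fits; Clasp2, lost in 10, Nck1, Wasl and Ndfip2, named after their values were seen, were among the 5 exceptions, and none changed sign. Set against the median of chromosome 15, a comparison added after seeing the data, Sdc2 at -0.74 and Ext1 at -0.49 stayed lower but under 2-fold. Among the markers, the calls of S100b and Cx3cr1 were lost in 3 and 9 of these fits. Without a filter, the 4 rarest genes were tested but not called, with adjusted p from 0.152 for Slit1 to 0.511 for Robo1.

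Deviations of libraries with the same replicate number correlated at 0.148, 0.0614 and 0.119, and those with different numbers at -0.144 to 0.0109. Each library thus correlated best with its own number, a hint from the data and not from the design, but the labels do not say that a number marks a shared batch. With the replicate number as a block, 3380 genes were higher and 3331 lower, 14 pathway genes were higher and 13 lower, and Slit2 at 1.72, Robo2 at -6.11, Srgap2 at -0.35 and Srgap3 at 1.26 kept their calls.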
